A study of Canis lupus familiaris with 20 samples.

Results

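The response of 3 genes of the extracellular protease system was followed when mammary cancer cells of the dog were grown together with canine macrophages: MMP9, a secreted gelatinase, ANPEP, the membrane-bound aminopeptidase N, and TIMP1, a secreted inhibitor of matrix metalloproteinases. They were chosen by name, with earlier results of these data known. Every probe whose RefSeq accession maps to 1 of the 3 symbols was taken. This gave 8 probes (4 for MMP9, 2 for ANPEP and 2 for TIMP1) of 43603 distinct probes on the array, where 1045 gene symbols could be assigned. Gene expression was measured on 20 two-colour arrays. Each array set RNA of a population sorted from the co-culture against RNA of the same kind of cell in mono-culture, each in its own dye. The cancer cells came from 5 lines: CMT-U27, a simple carcinoma, CMT-U309, a spindle-cell tumour, P114, an anaplastic cancer, and CMT-W1 and CMT-W2, both adenocarcinomas. The macrophages were CD64-positive monocytes sorted from dog blood. They were grown alone or layered on the cancer cells, and the co-culture was kept for at least 72 h. In mono-culture they had partially differentiated over 72 h without added growth factors, so differentiation and co-culture ran over the same time. Before the co-culture the cancer cells were stained with the dye CMTMR, and the cells were afterwards separated by fluorescence into stained and unstained populations, whereas the mono-cultures were not sorted. Both arrays of a dye-swap pair held the same RNAs and count as 1 replicate, so n = 5 for each cell type, 1 for each line. How many separate macrophage mono-cultures were grown is not stated in the sources used here, so the p-values may miss variation between such cultures.

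Matrix metalloproteinases are zinc-dependent endopeptidases that cut proteins of the extracellular matrix, and MMP9 cuts gelatin and the type IV collagen of basement membranes. It is secreted as an inactive proenzyme, to which TIMP1 binds, and TIMP1 also blocks the active enzyme. ANPEP, also known as CD13, sits on the surface of myeloid cells and of some epithelia and removes single residues from the N-terminus of peptides. Monocytes, macrophages and neutrophils are well-known sources of MMP9, and TIMP1 is made by many cell types, tumour and stromal cells included.

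The sorted populations were first checked against marker genes. Of 20 listed macrophage markers, 10 were matched to a probe, and in mono-culture all 10 were higher in macrophages than in cancer cells, in each line. After co-culture, 9 of the 10 were called higher in the cancer cells (limma, adjusted p under 0.05), where 6.75% of all probes tested were. The same number were called lower in the macrophages, where 26.7% of probes were, and CYBB was not called in either. The summed signal of the 10 markers lay between 3299 and 24994 units in mono-cultured cancer cells, between 13072 and 354897 in co-cultured cancer cells, between 595980 and 786485 in mono-cultured macrophages and between 50783 and 179061 in co-cultured macrophages. In the CMT-U27 co-culture all 10 markers were higher in the arrays labelled as cancer cells than in those labelled as macrophages. This number was 0 in CMT-U309, 2 in P114, 2 in CMT-W1 and 6 in CMT-W2. The CMT-U27 populations thus go against their labels for these genes, and the ratios and levels are also given without that line. Only 3 of 15 epithelial markers were matched. CLDN3, a tight junction protein, had a log2 ratio of -1.93 in the cancer cells (adjusted p = 0.0217 from limma). In the CMT-U27 co-culture its log2 normalized signal was 12.24 in the macrophages and 10.38 in the cancer cells. In P114 these were 10.10 and 9.90, and in the remaining lines the cancer cells were higher. ERBB2 was at -0.74 in the macrophages (adjusted p = 0.0470 from limma). It did not separate the cell types in mono-culture, with a mean log2 signal of 11.66 in cancer cells and 11.995 in macrophages. MUC1 was not tested in the cancer cells and not called in the macrophages. In bulk RNA, fewer cells of a type and less RNA per cell cannot be told apart. How much cells of the other population contributed to any ratio was not tested.

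In mono-culture both proteases were far higher in macrophages than in cancer cells. Levels here are log2 normalized signals, which can be compared between cultures for 1 probe but not between probes or genes. Probes are numbered by brightness within each gene. MMP9 probe 1 had a level of 15.95 in CMT-U27, 15.32 in CMT-U309, 13.76 in P114, 10.35 in CMT-W1 and 13.03 in CMT-W2 cancer cells. In the mono-cultured macrophages of the corresponding arrays it was 17.86, 17.76, 17.76, 18.27 and 18.08. The macrophage values lay close together, at 17.94 ± 0.22 (SD, n = 5), a spread that can be technical since the number of separate mono-cultures is not stated. They were above every cancer line, and the lines spread over more than 5 log2 units (13.68 ± 2.20). How many other probes separated the groups in this way was not counted. The mean difference was 4.26 on the log2 scale, or 19.2-fold (adjusted p = 0.00306 from limma). The other 3 MMP9 probes gave differences of 6.49, 5.49 and 7.19 with adjusted p of 0.000197, 0.000173 and 1.01e-06. With normexp background correction, loess and Aquantile, the differences of the dim probes 3 and 4 were 3.43 and 3.66, still called. Without CMT-U27 the 4 probes gave 4.85, 6.98, 6.08 and 7.63, all called.

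ANPEP probe 1 had a level of 11.44, 11.12, 11.18, 10.92 and 11.10 in the mono-cultured macrophages, in the order of lines above. In the lines themselves, grown alone, it was 5.67, 6.37, 3.98, 5.72 and 4.48, and it was well above background in the arrays of CMT-U309 alone (2 of 10 arrays). The macrophages were 5.91 log2 units higher (adjusted p = 2.69e-06), and by ANPEP probe 2 the difference was 3.47 (adjusted p = 2.94e-05). Since the level in cancer cells was mostly not above background, the size rests on the background correction, and with normexp, loess and Aquantile the differences were 2.42 and 0.65, both called. Without CMT-U27 they were 5.94 and 3.27, both called. All 6 protease probes were therefore higher in mono-cultured macrophages, where 19.0% of the 29624 probes tested were called higher.

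TIMP1 had the opposite order. Probe 1 had levels of 14.96, 15.92, 16.29, 15.37 and 14.92 in the mono-cultured cancer lines, in the same order of lines, against 14.18, 14.19, 14.38, 14.36 and 14.13 in the macrophages. Every cancer line was above every macrophage value, and how many other probes separated likewise was not counted. The macrophages were lower by a mean log2 difference of -1.25 (adjusted p = 0.0118 from limma, where 14.7% of probes were called lower). Without CMT-U27 the difference was -1.36 (adjusted p = 0.0213), and without CMT-U309 it was not called (adjusted p = 0.0594). TIMP1 probe 2 was not called, at -0.50 (adjusted p = 0.661, 95% confidence interval -2.24 to 1.25). Without CMT-U27 it was at -1.32 (adjusted p = 0.0469). In this probe CMT-U27 was the lowest line with a level of 10.11, while the other lines were between 13.61 and 15.42. The macrophage values were between 12.89 and 13.04.

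**Figure D1:**
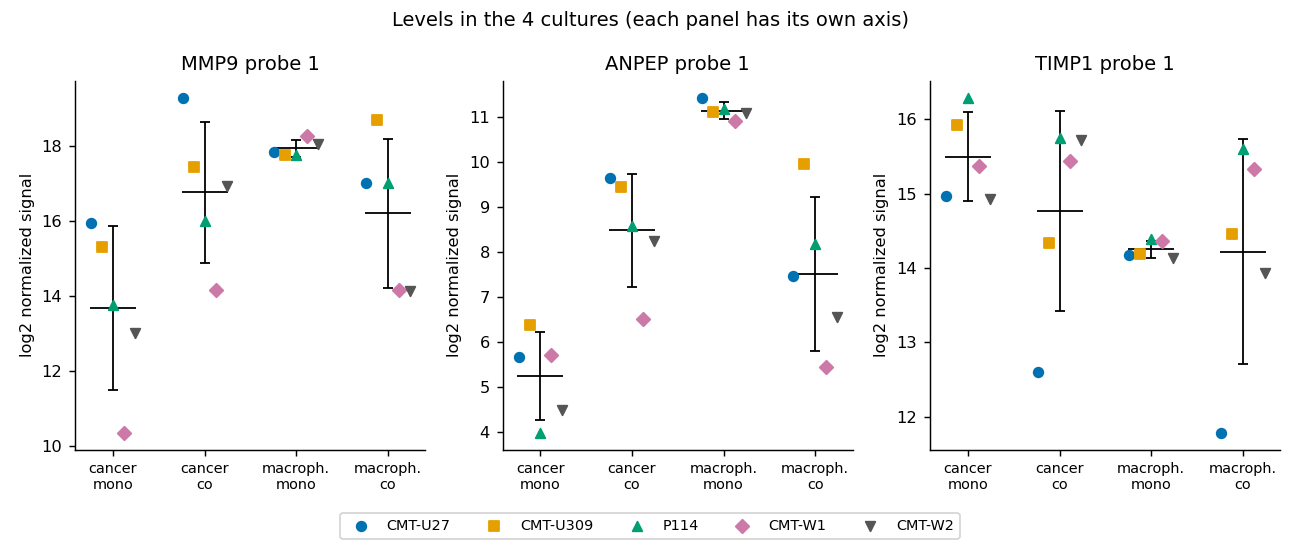
Log2 normalized signal (y axis, a separate scale in each panel) of probe 1 of MMP9, ANPEP and TIMP1 in mono-cultured and co-cultured cancer cells and macrophages (x axis). Points are the 5 co-cultures, coloured by line, and bars are the mean ± SD. Values of mono-cultured macrophages are tightly grouped, a spread that can be technical. They are above the cancer lines for MMP9 and ANPEP and below them for TIMP1, and the co-cultured populations overlap.

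In cancer cells sorted from the co-culture, MMP9 was higher in all 5 lines and by all 4 probes. By probe 1 the log2 ratio, co-culture against mono-culture, was 3.35 in CMT-U27, 2.12 in CMT-U309, 2.24 in P114, 3.80 in CMT-W1 and 3.92 in CMT-W2. The lowest value was in CMT-U309 and the highest in CMT-W2, and the mean was 3.09 ± 0.86 (SD, n = 5), an 8.50-fold higher signal (95% confidence interval 2.30 to 3.88 on the log2 scale, adjusted p = 0.00412 from limma). Probe 2 gave the largest ratios, 6.003, 4.39, 3.73, 6.50 and 6.22 in the same order of lines, with a mean of 5.37 ± 1.23, or 41.3-fold (adjusted p = 0.00125). Probe 3 had a mean log2 ratio of 3.58 ± 0.83 (adjusted p = 0.00203) and probe 4 of 4.69 ± 1.43 (adjusted p = 0.00364). The probes thus shared the direction and differed in size. In mono-cultured cancer cells 3 of 10 arrays had probe 4 well above background and 6 of 10 had probe 3, whereas all 10 had probe 1.

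ANPEP was also higher in co-cultured cancer cells. Its probe 1 had log2 ratios of 3.99 in CMT-U27, 3.09 in CMT-U309, 4.61 in P114, 0.79 in CMT-W1 and 3.76 in CMT-W2. CMT-W1 was far below the others, and there the probe was not well above background in either channel of either array. The mean was 3.25 ± 1.48 (SD, n = 5, 95% confidence interval 2.04 to 4.45, adjusted p = 0.0141). In mono-culture it was well above background in CMT-U309 alone, so the size of the ratio in the other lines rests on the background correction. Probe 2 had ratios of 2.46, 2.14, 1.68, 1.08 and 1.28, positive in every line, but was too dim to be tested, and its CMT-U309 value rests on 1 array because the other spot was marked as an outlier. Over the 7 probes tested, the 4 of MMP9 and the 1 of ANPEP were called higher, where 6.75% of all 28256 probes were. MMP9 and ANPEP are both on gene tables that the study chose from these same arrays, so their direction here is not independent evidence. The study also reported MMP9, but not ANPEP, by real-time qPCR, where it was higher in the co-cultured cancer cells of every line.

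TIMP1 had no common direction in the cancer cells. The log2 ratio of probe 1 was -2.36 in CMT-U27, -1.58 in CMT-U309, -0.54 in P114, 0.07 in CMT-W1 and 0.80 in CMT-W2. The lines fell on both sides of 0, with a mean of -0.72 ± 1.27 (SD, n = 5, 95% confidence interval -1.78 to 0.33, adjusted p = 0.304). Probe 2 gave 0.00, -1.37, -0.52, 0.85 and 1.14, a mean of 0.02 ± 1.02 (95% confidence interval -0.88 to 0.91, adjusted p = 0.977). Both probes had the same sign in 4 lines and disagreed in CMT-U27, the line in which the level of probe 2 was low in both cultures.

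Without CMT-U27, the mean for MMP9 probe 1 was 3.02 in the cancer cells (adjusted p = 0.0192) and that for ANPEP probe 1 was 3.06 (adjusted p = 0.0455), and the other MMP9 probes had adjusted p from 0.00822 to 0.0139. In that fit 3.12% of probes were called higher. TIMP1 probe 1 was at -0.31 and probe 2 at 0.02 (adjusted p = 0.658 and 0.980). With normexp background correction and loess, 3 of these 5 probes were no longer called: ANPEP probe 1 was at 0.94 (adjusted p = 0.102), MMP9 probe 3 at 1.97 (adjusted p = 0.0538) and MMP9 probe 4 at 1.92 (adjusted p = 0.0833). The methods' t-test, which does not pair the cultures of a line, was rerun on the levels used here. It called none of the 5 (adjusted p from 0.136 to 0.459). The study's own software, p-value cut-off and fold filter were not applied, so its procedure was not repeated.

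In the sorted macrophages ANPEP was lower after co-culture in all 5 lines. Probe 1 had log2 ratios of -3.98 with CMT-U27, -1.16 with CMT-U309, -3.01 with P114, -5.48 with CMT-W1 and -4.55 with CMT-W2. The smallest change was with CMT-U309 and the largest with CMT-W1. The mean was -3.63 ± 1.65 (SD, n = 5, adjusted p = 0.00216 from limma). Probe 2 gave -3.41, -0.80, -2.75, -3.36 and -4.11, a mean of -2.89 ± 1.26 (adjusted p = 0.00218), with the co-culture channel well above background on 2 of 10 arrays. With normexp and loess the means were -1.84 and -0.49, both called. Without CMT-U27 probe 2 was at -2.75 (adjusted p = 0.00704).

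MMP9 divided the macrophages by the line they had been grown with. Probe 1 had log2 ratios of -0.84 with CMT-U27, 0.94 with CMT-U309, -0.74 with P114, -4.10 with CMT-W1 and -3.92 with CMT-W2. The macrophages from both adenocarcinoma co-cultures lost far more MMP9 signal than the other 3, and those from CMT-U309 gained signal by probes 1 and 2. In 6 of the 10 macrophage markers these same macrophages from CMT-W1 and CMT-W2 also had the lowest ratios. The share of all probes with this order was not counted. The remaining markers did not split this way. CD80, TYROBP and CYBB were lowest with P114 (-3.69, -3.10 and -3.99), and CYBB was at 0.99 with CMT-W2. FCER1G was lower with P114 (-3.97) than with CMT-W1 (-3.91). CD163, a scavenger receptor of macrophages, had log2 ratios of -4.09, -1.78, -4.73, -8.61 and -8.03 in the order of lines above, and the median of the 10 markers was -2.94, -1.87, -3.98, -4.22 and -4.53. The neutrophil and monocyte gene S100A8 had -4.86, -1.98, -2.80, -6.58 and -6.67, while the other neutrophil markers, ELANE, CXCR2 and CAMP, did not have this order. The part of these shifts in the MMP9 ratios was not tested. Probe 1 had a mean of -1.73 ± 2.20 (adjusted p = 0.0871) and probe 2, with -0.92, 1.14, -0.85, -5.65 and -5.16, a mean of -2.29 ± 2.96 (adjusted p = 0.0881), and neither was called. The dimmer probes were lower in every line. Probe 3 gave -1.45, -0.21, -2.17, -4.46 and -5.02, a mean of -2.66 ± 2.03 (adjusted p = 0.0154), and probe 4 gave -1.92, -0.85, -2.45, -6.52 and -6.32, a mean of -3.61 ± 2.63 (adjusted p = 0.0121). Thus 2 of the 4 MMP9 probes and 2 of 2 ANPEP probes were called lower, against 26.7% of the 28510 probes tested. None of the 8 probes had a saturated spot, and the highest raw signal of MMP9 probes 1 and 2 was 26.7% and 29.1% of the saturation value. Without the filter on dim probes, MMP9 probes 3 and 4 were not called (adjusted p = 0.0667 and 0.0588). Whether MMP9 was called lower in the macrophages over these 5 co-cultures depended on the probe, and without CMT-U309 probes 1 and 2 were called as well (adjusted p = 0.0286 and 0.0320, with means of -2.40 and -3.14).

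TIMP1 in the macrophages was strongly lower with CMT-U27 alone. Probe 1 had log2 ratios of -2.39 with CMT-U27, 0.27 with CMT-U309, 1.21 with P114, 0.98 with CMT-W1 and -0.20 with CMT-W2, and probe 2 had -3.29, 0.62, 1.55, 1.27 and -0.01. Both probes ordered the 5 co-cultures alike. The means were -0.03 ± 1.44 and 0.03 ± 1.95 (adjusted p = 0.969 and 0.975, 95% confidence intervals -1.20 to 1.15 and -1.51 to 1.57). Without CMT-U27 they were 0.56 and 0.86, which were not called either (adjusted p = 0.206 and 0.0808). In the same 4 co-cultures, ANPEP probe 1 had a mean log2 ratio of -3.55 (adjusted p = 0.00657), MMP9 probes 1 to 4 of -1.95, -2.63, -2.97 and -4.03 (adjusted p = 0.0998, 0.0931, 0.0200 and 0.0151), where 20.5% of probes were called lower.

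**Figure D2:**
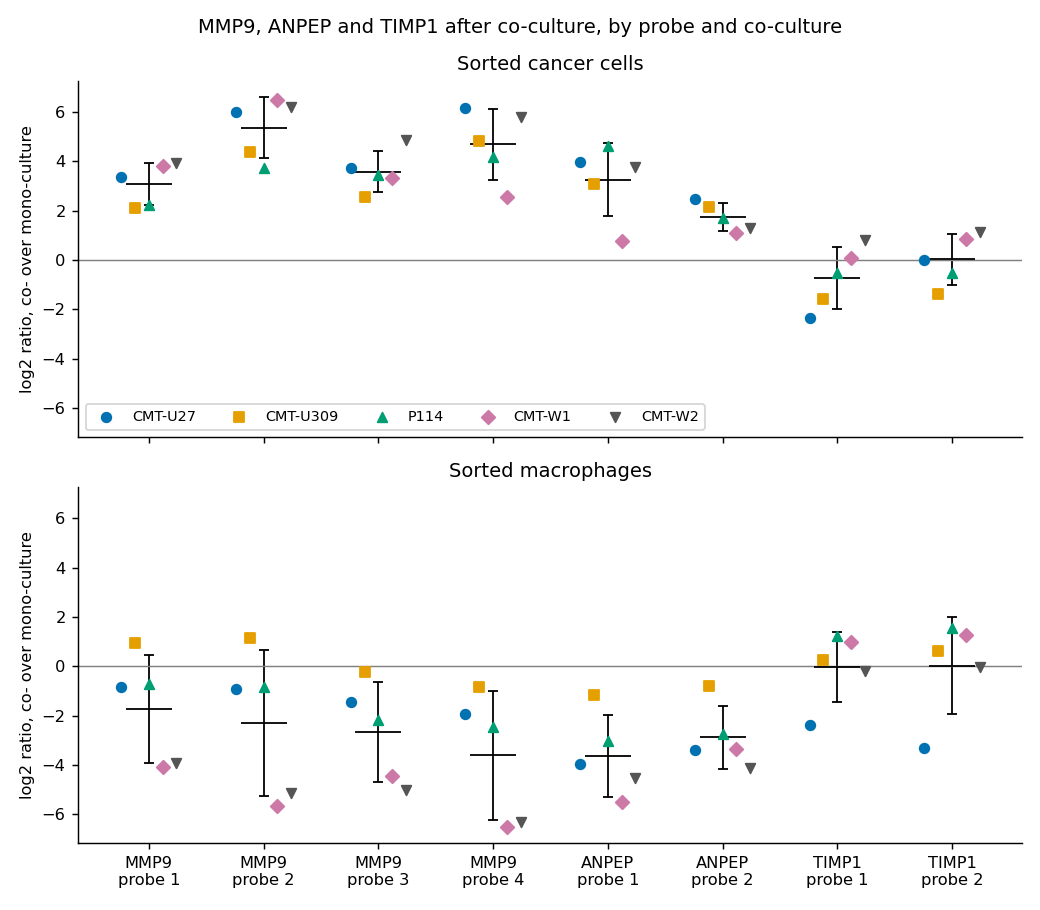
Log2 ratio (co-culture against mono-culture, y axis) for each of the 8 probes (x axis) in the sorted cancer cells (top) and macrophages (bottom). Points are the 5 co-cultures, coloured by line, and bars are the mean ± SD. All MMP9 and ANPEP ratios are positive in the cancer cells. In the macrophages the ANPEP ratios are negative, MMP9 has its lowest values with CMT-W1 and CMT-W2, and TIMP1 lies on both sides of 0.

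The ratios of the proteases differed between the cell types, and those of TIMP1 were not shown to. The mean log2 ratio in macrophages minus that in cancer cells was -4.82 for MMP9 probe 1 (adjusted p = 0.00197 from limma) and between -6.24 and -8.30 for its other probes, and -6.88 and -4.62 for ANPEP probes 1 and 2 (adjusted p = 0.000156 and 0.000146). All 6 protease probes were called, where 17.0% of probes were called lower. In each of them every cancer cell ratio was above every macrophage ratio. The share of all probes separated in this way was not counted. The study's tables from these arrays list both genes as higher in cancer cells and lower in macrophages, so this direction is not independent evidence. Without CMT-U27 the 6 values were between -8.36 and -4.30, with adjusted p from 0.00149 to 0.00902, in a fit that called 3461 of 28751 probes lower. With normexp and loess the differences of the dim probes were smaller, at -4.01 and -4.35 for MMP9 probes 3 and 4 and -2.79 and -0.77 for ANPEP, and all were called. For TIMP1 the differences were 0.70 and 0.01 (adjusted p = 0.501 and 0.994, 95% confidence intervals -0.93 to 2.32 and -1.84 to 1.86). The cell types were almost entirely on different slides. Of 5 slides, 1 held both, with the macrophages from CMT-U27 and the cancer cells of CMT-W1. Within it the difference of the log2 ratios was -4.64 for MMP9 probe 1, -4.76 for ANPEP probe 1 and -2.46 for TIMP1 probe 1. With the slide as a block, where the difference rests on that slide, no probe of the array was called by limma (4041 had an unadjusted p under 0.05).

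After co-culture the levels of the proteases differed less between the populations on average than in mono-culture, though not in every line. For MMP9 probe 1 the co-cultured cancer cells were at 19.30, 17.44, 16.01, 14.15 and 16.95, in the order of lines above, and the co-cultured macrophages at 17.02, 18.70, 17.02, 14.17 and 14.15. The cancer cells were the higher population in CMT-U27 and CMT-W2, and the macrophages were in the other 3 lines, by 0.02 in CMT-W1. The mean difference, macrophages minus cancer cells, was -0.56 (95% confidence interval -2.89 to 1.77), against 4.26 in mono-culture. The gap within a line was smaller than in mono-culture in 4 of 5 lines by this probe and in 5 of 5 by the other 3. The exception was CMT-U27, with -2.28 after co-culture and 1.91 before. In CMT-W2 the gap was -2.80 by probe 1 and -4.07 by probe 2.

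For ANPEP probe 1 the co-cultured cancer cells were at 9.66, 9.46, 8.59, 6.51 and 8.24 and the macrophages at 7.46, 9.96, 8.17, 5.43 and 6.56. The cancer cells were higher in all lines but CMT-U309. The mean difference was -0.97 (95% confidence interval -2.82 to 0.87), and the gap was smaller than in mono-culture in 5 of 5 lines. TIMP1 probe 1 was at 12.60, 14.34, 15.74, 15.44 and 15.72 in the cancer cells and at 11.78, 14.45, 15.60, 15.34 and 13.93 in the macrophages. In CMT-U309, P114 and CMT-W1 both populations were within 0.15 log2 units of each other, at a level that differed between these lines by more than 1, and CMT-U27 was the lowest line in both populations. The mean difference was -0.55 (95% confidence interval -2.32 to 1.22). Without CMT-U27 the mean difference by probe 1 was -0.13 for MMP9, -0.67 for ANPEP and -0.48 for TIMP1. None of the 8 probes was called, but this comparison called 2 of 29624 probes in either direction, 0.00675% (765 had an unadjusted p under 0.05).

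**Figure D3:**
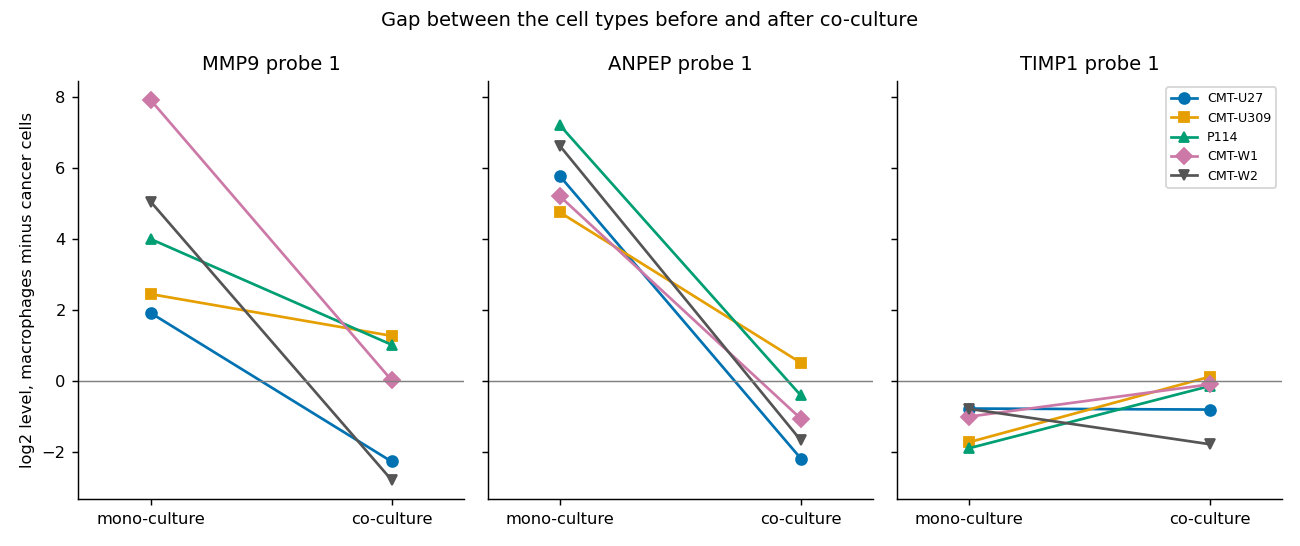
Log2 level in macrophages minus that in cancer cells (y axis) in mono-culture and in co-culture (x axis) for probe 1 of MMP9, ANPEP and TIMP1. Each line joins the values of 1 co-culture. The gaps of 1.91 to 7.92 for MMP9 and of 4.75 to 7.20 for ANPEP in mono-culture are between -2.80 and 1.26 and between -2.20 and 0.50 in co-culture, while TIMP1 stays between -1.90 and 0.11.

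Set against the level in mono-cultured macrophages of the same line, MMP9 in the co-cultured cancer cells was high. By probe 1 it reached 271% of that level in CMT-U27, 79.8% in CMT-U309, 29.7% in P114, 5.78% in CMT-W1 and 45.8% in CMT-W2. Cancer cells grown alone had 26.6%, 18.4%, 6.27%, 0.414% and 3.02%. The median of the 10 macrophage markers in the same co-cultured cancer cells was 56.6%, 12.8%, 4.44%, 1.85% and 9.26% of the macrophage level, and MMP9 probe 1 was above it in each line. In cancer cells grown alone the marker median was 1.04%, 1.01%, 0.377%, 0.325% and 0.466%, and MMP9 probe 1 was already above it in each line. MMP9 probe 2 had 4.39%, 4.07%, 2.25%, 0.0677% and 0.636% in cancer cells grown alone, below the marker median in CMT-W1. The dim probe 4 was below it in CMT-U309 (0.590%) and CMT-W2 (0.207%), and probe 3 was above it in each line. The markers and MMP9 both had their highest share in CMT-U27 and their lowest in CMT-W1. For ANPEP probe 1 the shares in co-cultured cancer cells were 29.1%, 31.6%, 16.6%, 4.69% and 13.8%, below the marker median in CMT-U27 and above it in the other 4 lines. In CMT-W1 the probe was not well above background, so its place there was not measured. In cancer cells grown alone the shares were 1.83%, 3.72%, 0.679%, 2.72% and 1.02%, already above the marker median in each line. Only that of CMT-U309 was well above background. TIMP1 probe 1 was at 33.5%, 111%, 257%, 211% and 302%, and had been between 172% and 374% in mono-culture. The part of macrophage RNA in these values was not tested.

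**Figure D4:**
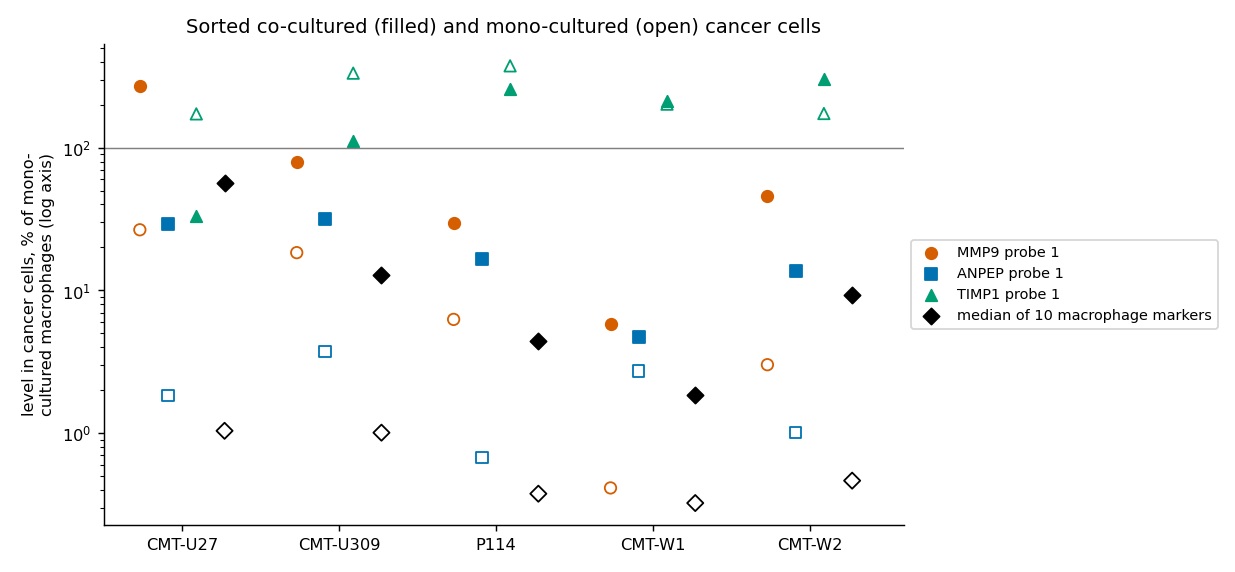
Level in sorted co-cultured (filled) and in mono-cultured (open) cancer cells as a percentage of the level in mono-cultured macrophages (y axis, log scale) for each line (x axis). Symbols show probe 1 of MMP9, ANPEP and TIMP1 and the median of 10 macrophage markers. In each line the co-cultured MMP9 value is above the marker median, from 5.78% against 1.85% in CMT-W1 to 271% against 56.6% in CMT-U27. The mono-cultured MMP9 value is also above the mono-cultured marker median in each line.

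The balance between the protease and its inhibitor was described by the MMP9 log2 ratio minus that of TIMP1. In the cancer cells, by probe 1 of each, it was 5.71 in CMT-U27, 3.70 in CMT-U309, 2.79 in P114, 3.74 in CMT-W1 and 3.12 in CMT-W2. All lines were positive, with a mean of 3.81 ± 1.14 (SD, n = 5), and an exact two-sided sign-flip permutation test gave p = 0.0625, the smallest value that 5 lines allow. The 8 pairs of an MMP9 and a TIMP1 probe had means from 3.07 to 6.09 and were positive in 5 of 5 lines. Since the study listed MMP9 as higher in the cancer cells from these same arrays, this sign is not independent evidence. In the macrophages the balance was 1.55, 0.67, -1.95, -5.07 and -3.72, a mean of -1.70 ± 2.82 (exact permutation p = 0.3125). It was positive with CMT-U27 by every probe pair, and negative with P114, CMT-W1 and CMT-W2. Without CMT-U27 the mean was 3.34 in the cancer cells and -2.52 in the macrophages, where 4 lines cannot give an exact p below 0.125.

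**Figure D5:**
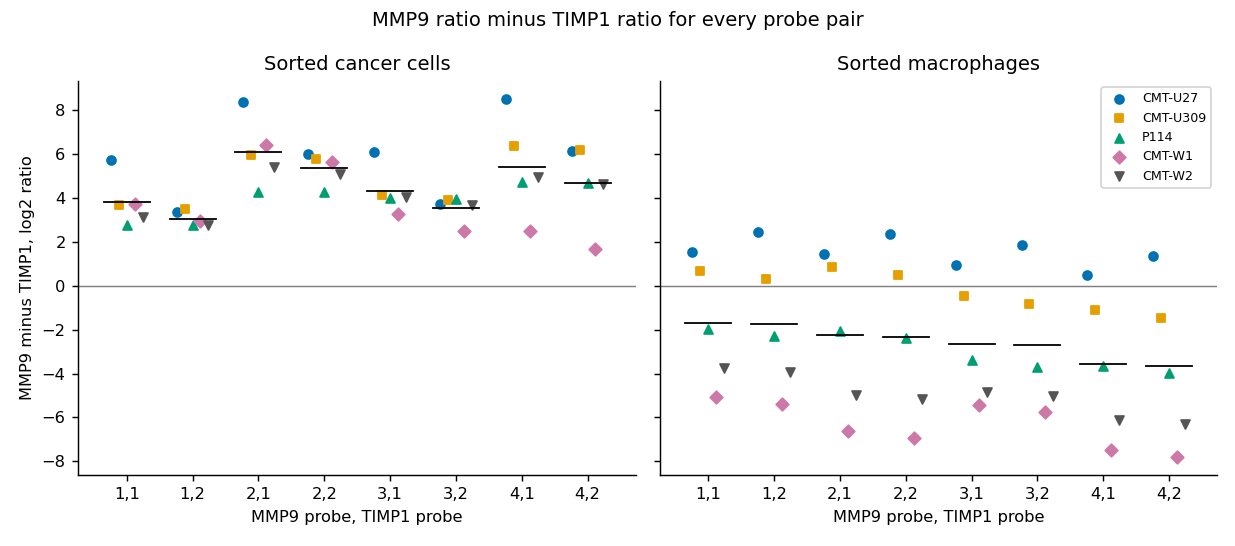
MMP9 log2 ratio minus TIMP1 log2 ratio (y axis) for each pair of an MMP9 and a TIMP1 probe (x axis) in sorted cancer cells (left) and macrophages (right). Points are the 5 co-cultures, coloured by line, and bars are the means. All values are positive in the cancer cells, and in the macrophages they run from positive with CMT-U27 to strongly negative with CMT-W1 and CMT-W2.

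Among the other genes of extracellular proteolysis, 70 listed genes, the 3 above included, gave 9 with a probe. Apart from MMP9, ANPEP and TIMP1, 5 of the remaining 6 were tested in each cell type, and RECK was too dim. In the cancer cells limma called 0 of these 5 in either direction, where 6.75% of all probes were called higher, and 1 of them, MMP3, had an unadjusted p under 0.05. In the macrophages 2 were called higher, where 22.1% of probes were, and 2 were called lower, where 26.7% were. The tests over the whole list gave 2 genes higher in the cancer cells, MMP9 and ANPEP, and 0 lower.

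MMP3, the secreted stromelysin-1, had log2 ratios of 0.00 with CMT-U27, 6.65 with CMT-U309, 8.73 with P114, 3.45 with CMT-W1 and 8.01 with CMT-W2 in the macrophages, a mean of 5.37 ± 3.62 (adjusted p = 0.00853). In mono-cultured macrophages it was well above background on 1 of 10 arrays. In the cancer cells it had -0.07, 2.25, 7.48, 2.35 and 6.91, and was not called (mean 3.79 ± 3.26, adjusted p = 0.0565). Both populations had a ratio near 0 in CMT-U27 and their largest ratio in P114. In CMT-U27 the level was 3.60 in co-cultured and 3.50 in mono-cultured macrophages, and 4.59 and 4.65 in the cancer cells. After co-culture these were the lowest MMP3 levels of each population, so a ratio near 0 there need not mean an absence of change. Without CMT-U27 the means were 6.71 (adjusted p = 0.00127) and 4.75 (adjusted p = 0.0502).

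PLAU, the urokinase-type plasminogen activator, had a log2 ratio of 2.48 ± 1.75 in the macrophages (adjusted p = 0.0120) and 1.72 ± 2.46 in the cancer cells (adjusted p = 0.188). The called decreases in the macrophages were TIMP2, a second inhibitor of the metalloproteinases, with -1.76 ± 0.89 (adjusted p = 0.00545), and ADAM9, a membrane-anchored disintegrin and metalloproteinase, with -1.19 ± 0.25 (adjusted p = 0.00370). In the cancer cells they had 0.39 and 0.30 (adjusted p = 0.497 and 0.458). Without CMT-U27 PLAU, TIMP2 and ADAM9 were at 2.47, -1.92 and -1.12 in the macrophages, all called, and none was called in the cancer cells. CD44, a cell surface receptor that binds MMP9, was not called in the cancer cells (-0.29) or the macrophages (0.30).

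The genes with the nearest log2 ratios were found by the root mean square difference over the 10 dye-swap pairs, among 538 genes with a symbol. For MMP9 these were the chemokine CCL8 (0.885 log2 units), the lysosomal sterol carrier NPC2 (1.05) and the phospholipase PLA2G7 (1.05). The CCL8 means were 3.91 for cancer cells and -2.24 for macrophages. For ANPEP they were FCER1G, the common gamma chain of Fc receptors (1.01), the Toll-like receptor TLR4 (1.18) and the ectoenzyme CD38 (1.28), with ANPEP itself measured above background in 9 of the 10 pairs. FCER1G, which is among the macrophage markers above, had means of 2.78 and -3.46. For TIMP1 they were TFF1 (0.990), HTR1B (0.992) and RHBDF2 (1.00), whose ratios stayed between -2.41 and 0.83. In the macrophages their ratios ran from -1.04 to 0.83, against -2.39 to 1.21 for TIMP1 probe 1. A small distance from TIMP1 thus does not mean a shared pattern. The cancer cell and macrophage pairs share lines, and the likeness is a description.

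Across the series, between 51.0% and 96.3% of probes on the cancer cell arrays exceeded background clearly in the co-culture channel. On the macrophage arrays it was between 54.5% and 74.7%. The cancer cell array with the most outlier spots had 9870, the next had 1438, and no macrophage array had more than 32. These spots were left out of the ratios. Dye-swapped arrays had a Pearson correlation across probes of 0.85 to 0.94 in the cancer cells and 0.89 to 0.96 in the macrophages, and probes are not independent replicates. The macrophage arrays had a median log2 ratio of -0.12 over the probes tested and the cancer cell arrays of -0.02. GAPDH, often used as a loading control, was at 1.46 in the macrophages (adjusted p = 0.00264) and at 0.67 in the cancer cells (adjusted p = 0.157). Among 4 neutrophil markers, S100A8 was higher in the cancer cells (3.46, adjusted p = 0.00165) and lower in the macrophages (-4.58, adjusted p = 0.00219), ELANE was higher in the macrophages (1.01, adjusted p = 0.0124), and CXCR2 and CAMP were not called in either. Of the 3 lymphocyte markers CD4 and CD8A were lower in the macrophages (-1.26 and -0.64), while MS4A1, not tested in the cancer cells, was not called there (2.52, adjusted p = 0.0544) and had its highest ratios with CMT-W1 (5.07) and CMT-W2 (5.83), and of the 4 mesenchymal markers PDGFRB was lower in the cancer cells (-1.25, adjusted p = 0.0475).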

How the data were processed

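The authors deposited the output of Agilent Feature Extraction (version 10.7.3.1 in the submitters' processing notes) for 20 arrays of a canFam2 design. Its log10 ratio of Cy5 over Cy3 was already background-corrected and dye-normalized by the authors. The deposited intensity columns hold median, background and processed signals on a linear scale. Other deposited columns mark spots above background, saturated or outlying. The deposited value table equals the ratio up to its sign within 0.0001.

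Ratios were turned to co-culture over mono-culture on the log2 scale, without outlier spots, and averaged over each dye-swap pair. Probes well above background in either channel on both arrays of at least 3 of 5 pairs were tested with limma (version 3.58.1, R 4.3.3), and p-values were adjusted by Benjamini-Hochberg over all probes tested, with 0.05 as threshold. A group difference was fitted between the cell types. Levels are processed signals after Aquantile normalization, averaged over both dyes. Lists use the brightest probe of a gene. The number of arrays limits the precision. The script was tested on simulated data. Symbols came from a RefSeq table of UU_Cfam_GSD_1.0 (1648 of 43603 probes), another build than the array's, so no coordinate is given, and no sequence was at hand.

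The genes named are MMP9, ANPEP and TIMP1 with all probes and every matched gene of the protease and inhibitor list. For each of the 3 genes, the 3 nearest in their log2 ratios are named too. Marker lists (macrophage, epithelial, neutrophil, lymphocyte, mesenchymal, loading) are summarised, with single markers named after their values were seen. Some listed genes are not reported here. Members and lists were chosen with earlier results of these data known. The populations of 1 co-culture share the line and are paired by design. Across probes their deviations correlated at 0.07 (CMT-U27), 0.52 (CMT-U309), 0.25 (P114), 0.26 (CMT-W1) and 0.10 (CMT-W2), against -0.39 to 0.16 between lines. Alternatives were other background correction and normalization, the deposited table, outlier spots, filters, single dyes, 10 arrays with a dye term, slide blocks, 1 fit for both cell types, 1 probe for each gene, the methods' t-test, the line as a block and each line left out. The slide as a fixed block was added after seeing the data.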

Additional observations from a re-analysis of the deposited data

Results flagged for a closer look

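The change with co-culture differed between macrophages and cancer cells for all 6 protease probes, by limma's test of the difference itself. The log2 ratio in macrophages minus that in cancer cells was -4.82, -7.65, -6.24 and -8.30 for MMP9 probes 1 to 4 and -6.88 and -4.62 for ANPEP probes 1 and 2, with adjusted p from 0.000146 to 0.00197. In this fit 17.0% of the 29624 probes tested were called lower. MMP9 and ANPEP were on the study's tables from these arrays in the same directions, so the sign of these differences is not independent evidence. In each of the 6 probes all 5 cancer cell ratios were above all 5 macrophage ratios, and how many other probes separated likewise was not counted. The 10 macrophage markers, measured in the same populations, had a median log2 ratio of 3.79 in the cancer cells and -3.56 in the macrophages, and their part in the differences was not tested. By Dixon's criterion for 5 values (a gap over 0.71 of the range), no line was an outlier in the ratio or level of any of the 8 probes, over 48 groups.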

How the results depend on the processing

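Every test of MMP9 and ANPEP kept its direction, apart from the level of MMP9 probe 1 after co-culture, which was at 0.0041 without CMT-W2. With normexp and median centring the ANPEP means in macrophages were -1.78 and -0.57, both called. In the cancer cells ANPEP probe 1 was no longer called with normexp and loess (0.94, adjusted p = 0.102) or normexp and median centring (0.98, adjusted p = 0.0769). MMP9 probe 3 in the macrophages was not called with normexp and median centring (-1.90, adjusted p = 0.0619), where probe 4 was at -2.27. By the methods' t-test, as rerun here on levels, neither MMP9 probe 1 (3.09, adjusted p = 0.459) nor ANPEP probe 1 (3.25, adjusted p = 0.150) was called. In the macrophages MMP9 probe 1 was called with 10 arrays and a dye term and with 1 fit for both cell types (-1.73 in both, adjusted p = 0.0259 and 0.0391). With the slide as a fixed block, chosen after seeing the data, the differences were -4.64 for MMP9 probe 1, -4.76 for ANPEP probe 1 (adjusted p = 0.437 and 0.290) and -2.46 and -4.14 for TIMP1 probes 1 and 2, and 0 probes were called. The line as a replicate block changed no call of the 8 probes and moved no count of calls by over 1.5 times (for example -4.82 for MMP9 probe 1). The causes were not tested.

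TIMP1 had no stable direction. In the macrophages probe 1 was at 0.10 with normexp and loess, 0.047 with normexp and median centring and 0.12 with the co-culture in Cy5, and probe 2 at -0.15 with it in Cy3 and -0.17 with the slide as a random block. In the cancer cells probe 1 was at 0.049 with normexp and median centring, and probe 2 at -0.0026 with normexp and loess and -0.073 with the co-culture in Cy3. Their difference was -0.0021 and -0.40 with normexp and median centring. Its lower level in mono-cultured macrophages was -1.11 with channels centred on their median (adjusted p = 0.0508).

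The probes called were 3758 in the cancer cells, 82 with normexp and loess, 2157 with Cy5 only, 11097 with 10 arrays, 7391 with the slide as a random block and 6 by the methods' t-test. In the macrophages they were 13888, and 7638 with normexp and median centring, and for the difference 9641 and 4937. With either normexp setting the protease and inhibitor list had 1 gene higher in the cancer cells and 1 in the macrophages, against 2 in each.

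Leaving out 1 line at a time gave 868 to 3175 probes called in the cancer cells, lowest without P114, 6425 to 11866 for mono-culture levels and 0 to 1 for co-culture levels. The ranges were -1.01 to 0.0041 for the co-culture level of MMP9 probe 1, -2.40 to -1.14 for its macrophage ratio, -1.36 to -1.08 for the mono-culture level of TIMP1 probe 1, -0.34 to 0.56 and -0.35 to 0.86 for TIMP1 probes 1 and 2 in macrophages, -0.26 to 0.37 for probe 2 in cancer cells and -0.51 to 0.83 for its difference.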
